A study of Arabidopsis thaliana with 9 samples.

Results

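Glucosinolates are sulphur-rich defence compounds of Arabidopsis, and 8 loci at which natural accessions of the species are known to differ in their glucosinolates, or that belong to the same gene families, were followed on 9 Affymetrix ATH1 arrays. The loci were taken by their identifiers: MAM1 (AT5G23010), MAM3 (AT5G23020), AOP1 (AT4G03070), AOP2 (AT4G03060), AOP3 (AT4G03050), the dioxygenase gene AT2G25450, ESP (AT1G54040) and ESM1 (AT3G14210). All 8 were among the 20777 loci of the deposited table. They were chosen by their known roles and by their levels in the arrays labelled 35S::AVP1 against wild type, so their values in that comparison are a description and carry no test. The choice is not known to have turned on the difference between the BRI1 line and wild type, and the 8 loci are tested in that comparison alone, although it shares its wild type arrays with the other.

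The RNA came from the vegetative part of seedlings at growth stage 1.03; the plants were raised in vitro on MS medium at 22 °C, in days of 16 h light and 8 h dark. There were 3 groups of 3 biological repeats, all labelled as Col-0: a line labelled 35S::AVP1, named for the vacuolar proton pump AVP1 behind the viral 35S promoter; a line with extra BRI1, the brassinosteroid receptor; and wild type. The labels give 35S::BRI1 in one field and BRI1 behind its own promoter in another, so the promoter is not settled, and they do not say how many transformants a line stands for. The design text of the series names a further line, overexpressing GRF5, which was not analysed here.

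The values are RMA levels on the log2 scale, in which a difference of 1 is a 2-fold difference in signal. Array medians lay between 6.34 and 6.42, and the 10th percentile of an array between 3.71 and 3.79. Arrays of 1 genotype correlated at 0.990 to 0.997 across loci, which are not independent replicates. BRI1 stood at 12.18, 12.34 and 12.33 in the BRI1 line, against 9.55, 9.58 and 9.51 in wild type. AVP1 stood at 12.49, 12.55 and 12.57 in the arrays labelled 35S::AVP1, against 12.58, 12.59 and 12.71 in wild type, so these arrays did not show more AVP1 RNA and are called by their label throughout. The leaf genes CA1, RCA and GAPA reached at least the 99.87 percentile on all 9 arrays, while the floral genes AP3, PI and AG reached the 24.8 percentile at most. The log2 levels of the 3 floral genes summed to 11.81 to 12.72 in the arrays labelled 35S::AVP1 and to 11.16 to 11.60 in the BRI1 line, against 11.27 to 11.52 in wild type; AG was called higher in the arrays labelled 35S::AVP1 (0.57, limma adjusted p = 0.00472). The 4 root genes PYK10, PHO1, COBL9 and EXPA7 had log2 levels that summed to 27.82 to 28.29 in the arrays labelled 35S::AVP1. The sums were 26.47 to 27.41 for the BRI1 line, against 25.91 to 26.28 for wild type. PYK10 alone stood at the 96.5 to 98.6 percentile over the 9 arrays. In the arrays labelled 35S::AVP1, PYK10 (0.86, limma adjusted p = 0.000698) and PHO1 (0.81, limma adjusted p = 0.0196) were called higher, and COBL9 and EXPA7 were not called. The part of the floral and root genes in the results below was not tested.

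In the pathway, MAM enzymes lengthen the carbon chain of methionine before it becomes an aliphatic glucosinolate, and thereby set the length of the side chain. AOP enzymes are dioxygenases that act late, on the finished side chain: AOP2 makes alkenyl and AOP3 hydroxyalkyl glucosinolates, while the function of AOP1 is less clear. When tissue is damaged, myrosinase breaks glucosinolates down; ESP, the epithiospecifier protein, directs the products to nitriles and epithionitriles, and ESM1, the epithiospecifier modifier, favours isothiocyanates. In Col-0 the AOP2 gene is known to give no working enzyme, and the gene table of the Columbia reference lists it as a transcribed pseudogene and the other 7 loci as protein-coding. Leaves of the accession Ler are known to express AOP3, whereas leaves of Col-0 are not. Whether the plants behind each array carried the Col-0 alleles at these loci was not tested.

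The 8 loci split evenly in the arrays labelled 35S::AVP1: AOP1, AOP3, MAM3 and ESP were higher than in wild type, and AOP2, AT2G25450, MAM1 and ESM1 were lower. Differences ran from -7.31 to 5.95 on the log2 scale, and at 7 of the 8 loci they were at least 2-fold, a size that 1.80% of all loci reached. In the BRI1 line the same 8 loci differed from wild type by 0.03 to 0.31, all 8 with a positive sign. Over all loci 9705 differences were positive and 11072 negative. The 8 signs rest on the same wild type arrays and are not independent. Of the 8 loci 0 passed the test in the BRI1 line, beside 0.0818% of all loci. By limma with Benjamini-Hochberg adjustment over all loci, the arrays labelled 35S::AVP1 gave a call at 8 of 8, and at 11.1% of all loci; that contrast guided the choice of the loci, and nothing is read from the count. At all 8 loci the 3 arrays labelled 35S::AVP1 lay apart from the 3 of wild type, as they did at 28.4% of all loci.

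**Figure D1:**
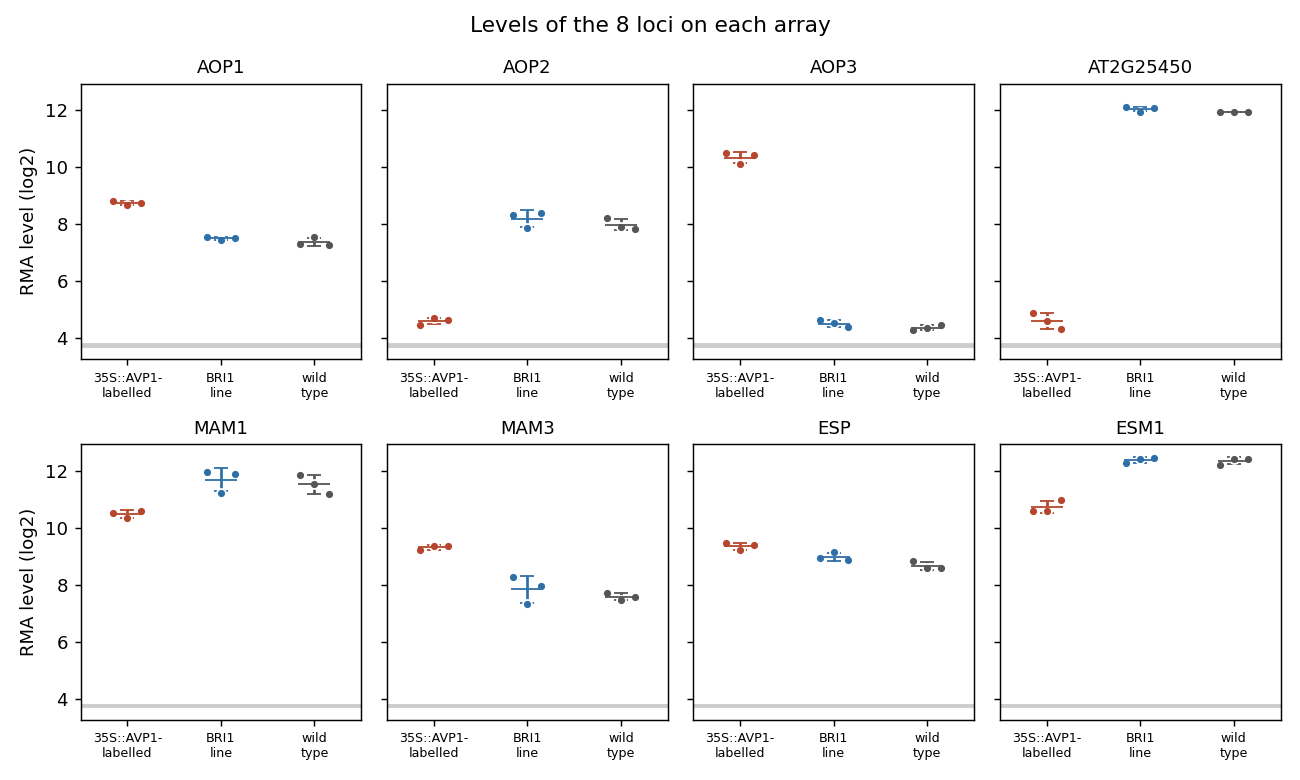
RMA levels (log2) of the 8 loci on each of the 9 arrays, 1 panel per locus, with the mean (long dash) and SD (bars) of 3 arrays per genotype. The grey band marks the 10th percentiles of the arrays (3.71 to 3.79). AOP2 and AT2G25450 stand below 5 in the arrays labelled 35S::AVP1, and AOP3 stands below 5 in the BRI1 line and in wild type.

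MAM1 and MAM3, which are next to each other on chromosome 5, went opposite ways in the arrays labelled 35S::AVP1. MAM1, which makes the shorter elongated chains, had 10.51, 10.34 and 10.60 in the arrays labelled 35S::AVP1, 11.96, 11.22 and 11.87 in the BRI1 line, and 11.84, 11.52 and 11.19 in wild type. It was lowest in the arrays labelled 35S::AVP1, whose highest array stayed under the lowest of the others, and the BRI1 line and wild type overlapped. The mean difference from wild type was -1.04 in the arrays labelled 35S::AVP1, 2.05-fold lower.

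MAM3, whose enzyme accepts chains of many lengths including the longest, had 9.21, 9.35 and 9.37 in the arrays labelled 35S::AVP1, 8.26, 7.33 and 7.95 in the BRI1 line, and 7.71, 7.45 and 7.57 in wild type. The arrays labelled 35S::AVP1 were the highest, by 1.73 over wild type (3.31-fold), while the BRI1 line, in which replicate 2 was low, spanned the whole wild type range. Which probes stand behind each value is not given here, so signal shared between these related genes cannot be told from RNA of either.

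The AOP cluster on chromosome 4 differed at all 3 of its genes in the arrays labelled 35S::AVP1, with AOP3 and AOP1 higher than in wild type and AOP2 lower. AOP3 had 10.48, 10.09 and 10.40 in the arrays labelled 35S::AVP1, 4.63, 4.52 and 4.39 in the BRI1 line, and 4.28, 4.37 and 4.47 in wild type. The difference from wild type was 5.95 in the arrays labelled 35S::AVP1, set against a wild type signal that cannot be told from background in this table. Within its array AOP3 stood at the 93.9 to 95.4 percentile in the arrays labelled 35S::AVP1, at the 25.2 to 29.8 percentile in the BRI1 line and at the 23.6 to 26.8 percentile in wild type.

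AOP2 ran the other way, with 4.47, 4.70 and 4.63 in the arrays labelled 35S::AVP1, 8.32, 7.87 and 8.39 in the BRI1 line, and 8.21, 7.89 and 7.84 in wild type. Its difference from wild type was -3.38, a 10.4-fold lower signal, and it stood at the 25.6 to 29.3 percentile of the arrays labelled 35S::AVP1. AOP2 in these arrays and AOP3 in the other 6 thus lay in the same low stretch of the array, where the table holds no detection calls and background signal may limit the fold. A lower signal, here and at AT2G25450, MAM1 and ESM1, may also come from probes that do not match the RNA of the plants, which was not tested.

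AOP1 had 8.79, 8.67 and 8.74 in the arrays labelled 35S::AVP1, 7.55, 7.44 and 7.52 in the BRI1 line, and 7.30, 7.55 and 7.28 in wild type. It was higher in the arrays labelled 35S::AVP1 by 1.36 (2.57-fold), and the BRI1 line lay within the range of wild type. Probe signal shared between the related AOP genes was not tested.

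AT2G25450, for which the reference table gives no symbol, showed the widest difference of the 8 loci. It had 4.90, 4.61 and 4.31 in the arrays labelled 35S::AVP1, 12.09, 11.93 and 12.07 in the BRI1 line, and 11.93, 11.91 and 11.92 in wild type. The difference was -7.31 in the arrays labelled 35S::AVP1, where the signal cannot be told from background, so that the size of the difference depends on the background level. Within its array the gene stood at the 23.2 to 32.1 percentile in the arrays labelled 35S::AVP1, against the 98.7 percentile in wild type. Wild type held the gene within an SD of 0.01, where the median SD over all loci was 0.10, while the 3 arrays labelled 35S::AVP1 had an SD of 0.29 at this low level.

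The breakdown genes ESP and ESM1, which act against each other on the products, also moved in opposite directions in the arrays labelled 35S::AVP1. ESP had 9.45, 9.22 and 9.38 in the arrays labelled 35S::AVP1, 8.92, 9.13 and 8.87 in the BRI1 line, and 8.83, 8.59 and 8.57 in wild type. The 3 genotypes did not overlap: ESP was highest in the arrays labelled 35S::AVP1 (by 0.69 over wild type, 1.61-fold), and the BRI1 line lay narrowly above wild type. ESM1 had 10.58, 10.60 and 10.96 in the arrays labelled 35S::AVP1, 12.26, 12.41 and 12.45 in the BRI1 line, and 12.20, 12.41 and 12.42 in wild type. The difference from wild type was -1.63 in the arrays labelled 35S::AVP1, 3.10-fold lower, and the BRI1 line and wild type overlapped nearly in full. The RNA came from whole tissue, so less RNA per cell and fewer cells that express a gene cannot be told apart for any of these loci.

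The BRI1 line against wild type was the comparison in which the 8 loci could be tested. By limma (3 arrays against 3, 1 mean per genotype over all 9 arrays), 0 of 8 passed at an adjusted p under 0.05. The share called over all loci was 0.0818%, which is 17 loci. Of these 8 were higher and 9 lower, a split that was 9 and 5 after quantile normalization and 11 and 6 after median centring. ESP was nearest to a call, at 0.31 above wild type (SE 0.10, 95% interval 0.08 to 0.53, unadjusted p = 0.0121, limma adjusted p = 0.726). It was the 1 locus of 8 with an unadjusted p under 0.05, a level that 5.30% of all loci reached.

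The other 7 loci had differences of 0.13 (AOP1), 0.21 (AOP2), 0.14 (AOP3), 0.11 (AT2G25450), 0.16 (MAM1), 0.27 (MAM3) and 0.03 (ESM1) in the BRI1 line, with 95% intervals that all included 0. The intervals bound what difference in signal could have been missed. The lowest limit of any of the 8 was -0.29 (MAM1) and the highest 0.70 (MAM3), so a 2-fold loss or gain of signal lay outside all of them. At AOP3 the signal cannot be told from background in either group, so its interval does not bound a change in its RNA. The median of the 8 differences was 0.15, beside -0.01 for all loci. The 3 arrays of the BRI1 line lay wholly above the 3 of wild type at ESP and AT2G25450, and at AT2G25450 by less than the rounding of the levels given above; 4.38% of all loci lay wholly above in this way. Both comparisons use the same wild type arrays.

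**Figure D2:**
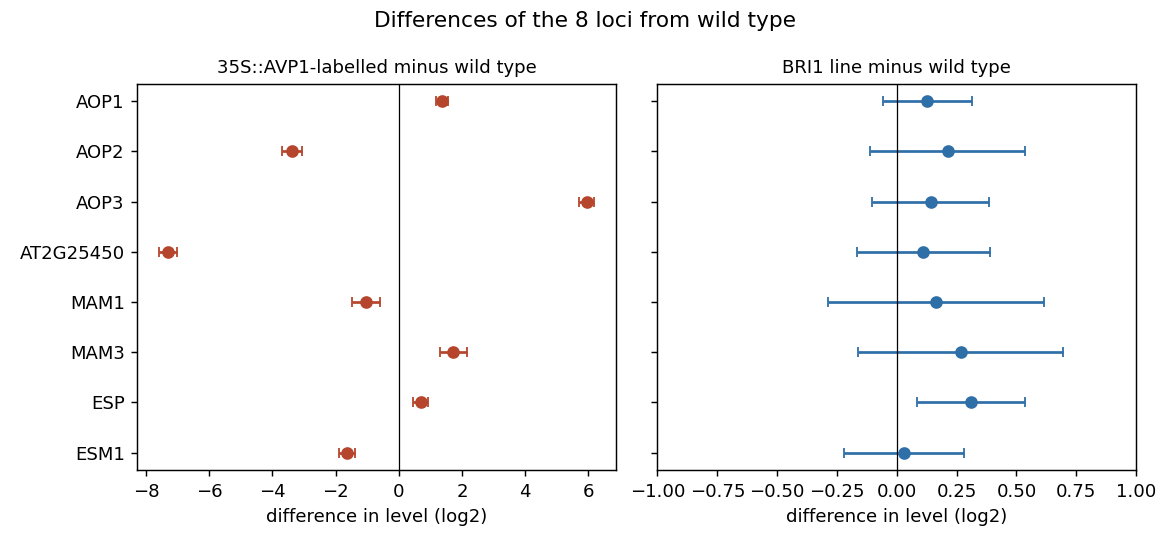
Differences in level (log2) of the 8 loci from wild type, with 95% limma intervals, in the arrays labelled 35S::AVP1 (left) and the BRI1 line (right); the horizontal scales differ. On the left the values run from -7.31 to 5.95 and describe the loci as chosen, and on the right from 0.03 to 0.31.

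The nearest measured neighbours of these loci were looked up in the gene order of the reference, 2 on either side, which gave 20 loci outside the 8. In the arrays labelled 35S::AVP1 limma called 2 of the 20, beside 11.1% of all loci, 1 higher and 1 lower, and their median difference was 0.03 where that of all loci was 0.05. Both lay beside ESP. AT1G54050 fell to 6.13, 6.38 and 6.45 in the arrays labelled 35S::AVP1, against 7.33, 7.25 and 7.36 in wild type (difference -0.995, SE 0.10, limma adjusted p = 0.000160). MVP1 (AT1G54030), a GDSL lipase-like gene needed for normal vacuole form, rose to 8.83, 8.71 and 8.86, against 8.38, 8.48 and 8.16 in wild type (difference 0.46, SE 0.11, limma adjusted p = 0.0224). The call of MVP1 was lost without replicate 1 or 3 labelled 35S::AVP1 or without wild type replicate 3, at adjusted p = 0.0718, 0.0715 and 0.0629.

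The genes that flank the AOP cluster gave small differences that were not called: -0.03 for AT4G03040 beside AOP3 and -0.10 for BSL1, a phosphatase gene beside AOP1. On either side of the MAM pair, MYB37 differed by 0.09 and TET12 by 0.23. Beside AT2G25450, RLP20 differed by 0.04 and AT2G25460 by -0.05, and beside ESM1, AT3G14205 differed by -0.01 and AT3G14220 by 0.16. Of these 8 flanking loci, AT4G03040 (3.91), RLP20 (3.81), AT2G25460 (3.56) and TET12 (3.90) had levels in the arrays labelled 35S::AVP1 near or under the 10th percentile (3.71 to 3.79), where a change could go unseen. MYB37 (4.21), at the 17.1 to 23.1 percentile of these arrays, was low as well, so a change could go unseen on both sides of the MAM pair. In the BRI1 line, where 0.0818% of all loci were called, limma called 0 of the 20 neighbours, and MVP1 had 8.76, 8.61 and 8.96 there (difference 0.44, limma adjusted p = 0.455).

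**Figure D3:**
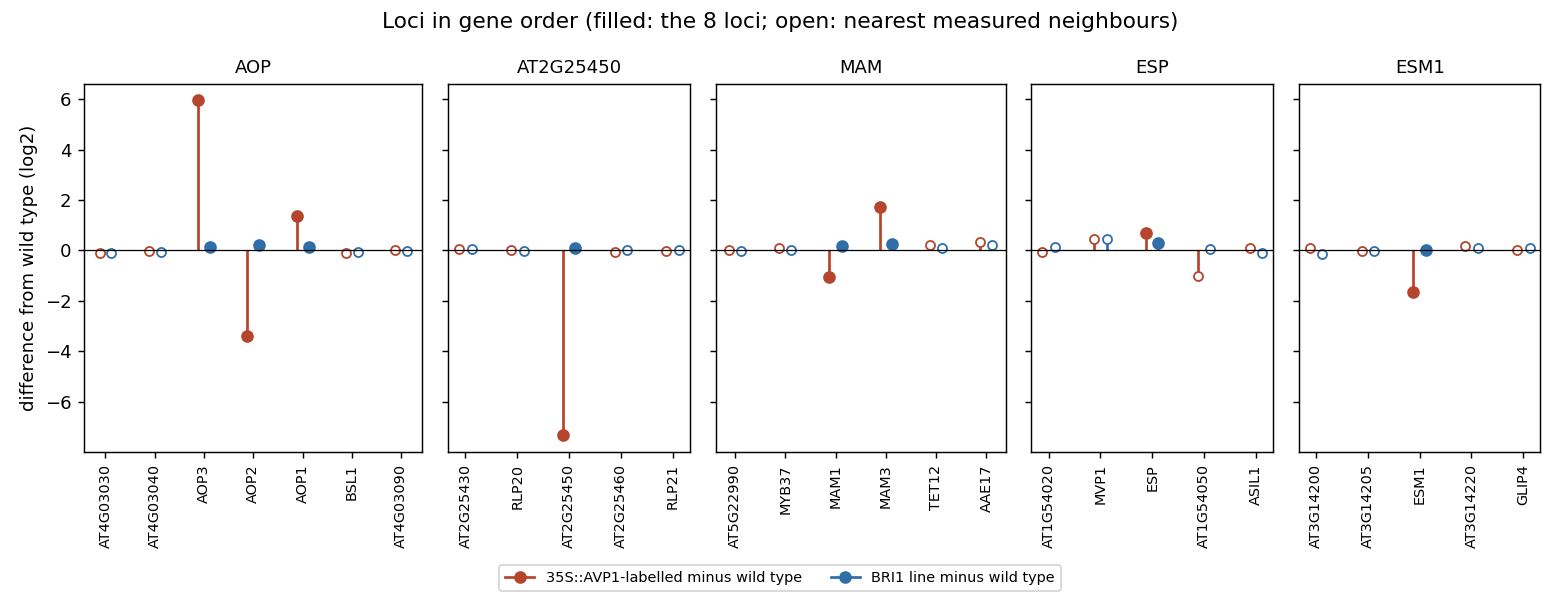
Differences from wild type (log2) of the 8 loci (filled) and their nearest measured neighbours (open), placed in gene order but not to distance, in the arrays labelled 35S::AVP1 and the BRI1 line. The neighbours of AOP, AT2G25450, MAM and ESM1 stay within 0.32 of 0 (AAE17, the second measured locus after MAM3, at 0.32), and beside ESP the neighbour AT1G54050 reaches -0.995 in the arrays labelled 35S::AVP1.

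The rest of the glucosinolate pathway was read from 7 lists with 55 entries, of which 40 were measured. In the arrays labelled 35S::AVP1 limma called 5 of the 40 (12.5%, against 11.1% of all loci), 3 higher and 2 lower, with a median difference of 0.04 beside 0.05 for all loci. The measured chain elongation genes, whose enzymes work directly with MAM, and the measured aliphatic core genes were not among them. Of 6 measured chain elongation genes 0 were called by limma, with 1 at an unadjusted p under 0.05, and of 9 measured aliphatic core genes 0 were called, with 2 at that level, which 24.2% of all loci reached. Among them the isomerase subunit genes IPMI-SSU3 and IPMI-LSU1 differed by 0.51 (limma adjusted p = 0.200) and 0.26 (limma adjusted p = 0.282). CYP83A1, the cytochrome P450 of the aliphatic core, differed by 0.35 (limma adjusted p = 0.187), and the sulphotransferase gene SOT18 by 0.25 (limma adjusted p = 0.186). Several of these genes varied widely between arrays of wild type and the BRI1 line, so a small change could be missed. Without BRI1 line replicate 2 the limma adjusted p was 0.0535 for IPMI-SSU3 and 0.0870 for CYP83A1.

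Side chain oxygenation, the step just before AOP, held the 1 call over 2-fold. FMOGS-OX2, a flavin monooxygenase that oxidises the side chain sulphur, rose to 7.13, 7.18 and 7.35 in the arrays labelled 35S::AVP1, against 5.45, 4.93 and 4.42 in wild type (difference 2.28, SE 0.26, limma adjusted p = 0.000289). Its relative FMOGS-OX4 fell to 5.10, 5.18 and 5.25, against 5.91, 5.63 and 6.09 in wild type (-0.70, SE 0.15, limma adjusted p = 0.0169), a call lost without replicate 1 or 2 labelled 35S::AVP1 (adjusted p = 0.0607 and 0.0532). The other 3 of the 5 monooxygenase genes were not called, and lists this small cannot be set apart from the 11.1% of all loci that were. These genes are related in sequence, and shared probe signal was not tested.

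Of 8 indole branch genes, CYP81F1, which modifies the indole ring, rose by 0.80 (limma adjusted p = 0.00136) and CYP83B1, which feeds the indole core, fell by 0.45 (limma adjusted p = 0.0232). The CYP83B1 call was lost without any of the 3 arrays labelled 35S::AVP1 and without wild type replicate 1 or 2 (adjusted p up to 0.0880). Of 8 regulators, MYB28, the main activator of aliphatic glucosinolate genes, rose to 9.97, 9.78 and 10.28 in the arrays labelled 35S::AVP1, against 9.43, 9.21 and 9.23 in wild type (0.72, SE 0.14, limma adjusted p = 0.00932). It was the 1 regulator called, and the list did not rise as a whole. Differences were positive in 3 regulators and negative in 5, with a median of -0.21. An unadjusted limma p under 0.05 was found in 5 of the 8, against 24.2% of all loci. Limma called 0 of the 4 measured breakdown genes, a list too short to differ visibly from the 11.1% of all loci. The nitrilase gene NIT3, at 0.23 (adjusted p = 0.0640), was the 1 with an unadjusted p under 0.05, against 24.2% of all loci. NSP5, a nitrile specifier gene, differed by -0.13 (adjusted p = 0.438). The other 9 breakdown entries, which include the myrosinases TGG1 and TGG2, and both transporter entries were not analysed here.

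In the BRI1 line limma called 0 of the 40 listed genes, beside 0.0818% of all loci, and 5 of the 40 had an unadjusted p under 0.05, beside 5.30% of all loci. Their differences were positive in 32 and negative in 8, where all loci had 9705 positive and 11072 negative. The median of the 40 was 0.20, beside -0.01 for all loci. The lowest p in each list belonged to IPMI-SSU3 (0.42) and BAT5 (0.29) for chain elongation, GGP1 (0.26) and SOT17 (0.43) for the aliphatic core, FMOGS-OX2 (0.58) and FMOGS-OX1 (0.30) for oxygenation, CYP79B2 (0.40) and CYP81F1 (0.27) for the indole branch, MYB51 (-0.37) and MYB34 (0.34) for the regulators, and NIT3 (0.23) and NSP2 (0.16) for breakdown, with limma adjusted p between 0.636 and 0.958. Leaving out single arrays moved several of these values by over 1.5 times, among them IPMI-SSU3 (0.27 to 0.71), BAT5 (0.15 to 0.52), SOT17 (0.27 to 0.71), FMOGS-OX2 (0.33 to 0.84), FMOGS-OX1 (0.15 to 0.53) and MYB51 (-0.49 to -0.17).

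**Figure D4:**
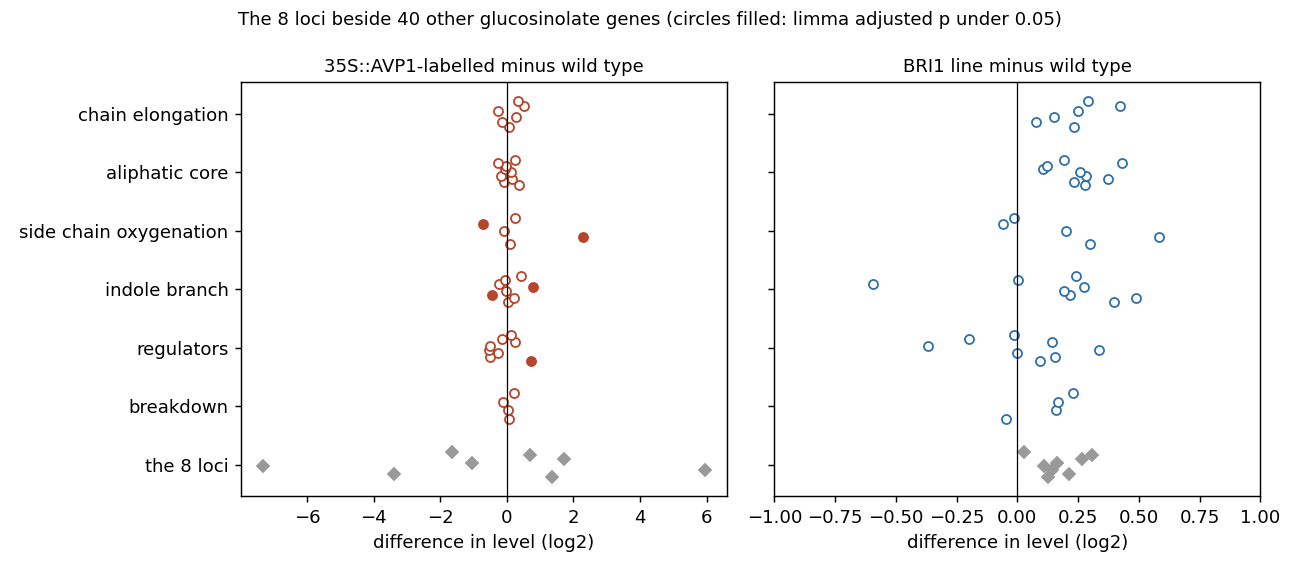
Differences from wild type (log2) of the 40 measured genes of the glucosinolate lists (circles, filled where limma called them) and of the 8 loci (grey diamonds, calls not marked), in the arrays labelled 35S::AVP1 (left) and the BRI1 line (right); the horizontal scales differ. On the left 5 circles are filled and the diamonds reach -7.31 and 5.95, and on the right 0 circles are filled.

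Within the BRI1 line and wild type, MAM1 and most genes of the aliphatic core and indole branch were low on the same arrays. In the BRI1 line, replicate 2 was the lowest of the 3 arrays for all 15 measured chain elongation and aliphatic core genes, where it was the lowest for 32.7% of all loci. Replicate 2 was also the lowest for MAM1 (0.46 below the mean of the line), MAM3 (0.52 below) and AOP2 (0.33 below), and for 5 of the 8 loci in all. In wild type, replicate 3 was the lowest for 14 of the 15 genes, against 33.9% of all loci, and also for MAM1 and AOP2 but not for MAM3. Of the 8 indole branch genes, 7 were lowest in BRI1 line replicate 2 and 7 in wild type replicate 3. The median deviation of the 15 genes from their wild type means was 0.48, -0.15 and 0.41 in BRI1 line replicates 1, 2 and 3, and 0.24, 0.03 and -0.28 in those of wild type. For replicates 1, 2 and 3 labelled 35S::AVP1 the median was 0.06, -0.02 and 0.13.

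This spread bears on the BRI1 line's values. MAM1 had an SD of 0.41 and MAM3 of 0.48 in that line, where the median SD over all loci was 0.09. Without BRI1 line replicate 2 the difference from wild type was 0.40 for MAM1 (limma adjusted p = 0.908) and 0.53 for MAM3 (0.312). Without replicate 1 it was 0.025 for MAM1 (0.996) and 0.06 for MAM3 (0.984). Without wild type replicate 3 it was 0.003 for MAM1 and 0.27 for MAM3. AOP2 ranged from 0.115 to 0.375 as single arrays were left out, and was not called in any of these fits. In the arrays labelled 35S::AVP1, which guided the choice of the loci, the difference of MAM1 ran from -1.20 to -0.88. That of MAM3 ran from 1.66 to 1.79, whichever array was left out or other setting used. The range of MAM1 was little narrower than in the BRI1 line (0.003 to 0.396), and nothing is read from these ranges.

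**Figure D5:**
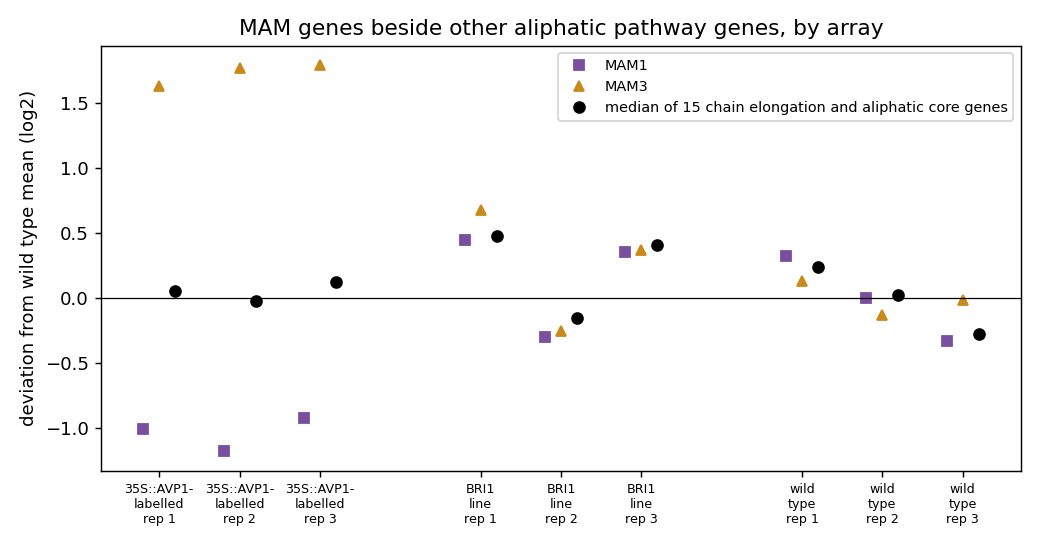
Deviation from the wild type mean (log2) on each of the 9 arrays for MAM1 (squares), MAM3 (triangles) and the median of 15 chain elongation and aliphatic core genes (black circles). In the BRI1 line all 3 are lowest in replicate 2, and in the arrays labelled 35S::AVP1 MAM1 lies below and MAM3 above the 15-gene median, which stays between -0.02 and 0.13.

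The loci whose pattern over the 9 arrays was most like each of the 8 were found by the root mean square difference between log2 deviations from the wild type mean, a measure that uses the contrast behind the choice of the 8 and describes these arrays only. Nearest to AT2G25450 were AT1G66100 (0.24), ECS1 (0.37) and ZW9 (0.62). Nearest to AOP2 were AT1G63880 (0.15), SNC1 (0.21) and AT4G19500 (0.21). AOP3 had no close match: its nearest, HPL1, lay 0.73 away, and the next, AT5G15360 and AT5G35480, 1.44 and 1.60. The nearest loci of the others were PAP3 for AOP1 (0.12), UMAMIT30 for MAM1 (0.14), SQE6 for MAM3 (0.16), AT3G24360 for ESP (0.10) and AT4G16710 for ESM1 (0.08).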

How the data were processed

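Total RNA of 9 samples was hybridised to ATH1 arrays. The authors made the deposited log2 values with RMA, as the submitters' processing notes record; the sources used here give neither its version nor the map of probes to loci nor the set of arrays it was run on. They were used as deposited. All 20777 loci were fitted with 1 mean per genotype in limma 3.58.1 in R 4.3.3 (6 residual and 3.94 prior degrees of freedom), and each line was contrasted with wild type. A locus was called at a Benjamini-Hochberg adjusted p under 0.05 over all loci. The p-values rest on the spread between repeats that the labels call biological, and 3 arrays per genotype limit the precision, since arrays give no counts. Data with 20777 loci were also simulated for each contrast, with 100 loci given a log2 change of 1, 100 given 0.5 and the rest none. The test found 95% of loci given a change of 1 in either contrast. Of those given 0.5 it found 51% for the arrays labelled 35S::AVP1 and 60% for the BRI1 line. The adjusted cut-off depends on how many loci differ. In the real contrasts 2300 and 17 loci were called, so these shares need not hold there.

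Names and gene order came from a TAIR10.1 gene table, which held 20508 of the loci, or from the gene lists, which supply names such as MAM3. Named genes were the 8 loci, AVP1 and BRI1, the marker genes, the 2 nearest measured loci on either side of each of the 8, the 3 loci of the most similar pattern, and of each glucosinolate list up to 3 called genes each way with the lowest p, or 2 with the lowest p where 0 were called; of patterns and flanks only some are printed. The loci and lists were chosen with earlier results of these data known. Alternatives were quantile normalization, median centring, removal of the dimmest 25% of loci (all 8 loci passed), fits to 6 arrays, the replicate number as a block, a variance trend with a robust prior, and leaving out each array. Arrays that share a replicate number had deviations from their group means that correlated at 0.02 to 0.48, over 0.1 in 5 of 9 pairs, and the labels tie the number to no shared batch, so the numbers were not treated as pairs. Slide and scan were not in the data used here.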

Additional observations from a re-analysis of the deposited data

How the results depend on the processing

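The 8 loci kept their direction in the arrays labelled 35S::AVP1 under all 15 alternatives, with AOP3 between 5.87 and 6.06, AT2G25450 between -7.46 and -7.16, AOP2 between -3.45 and -3.26 and ESP between 0.64 and 0.77. Little is learned from this, since these arrays lay apart from wild type at all 8 loci, so leaving out an array could not reverse a direction. Only the 2 normalizations and leaving out an array of either group compared could alter these differences at all. In the BRI1 line 0 of the 8 were called under any of them; only ESM1 changed sign, at -0.043 to 0.087 when any 1 array was left out (-0.011 without BRI1 line replicate 3 and -0.043 without wild type replicate 1). Loci called in the BRI1 line numbered 17, 7 in the fit to 6 arrays, and 3 to 10 when any 1 of the 9 arrays was left out. The listed glucosinolate genes called in the arrays labelled 35S::AVP1 numbered 5, and 3 to 7 when 1 array was left out (3 without replicate 2 of that label); in the BRI1 line they were 0 under every alternative. With the replicate number as a block, loci called were 2602 for the arrays labelled 35S::AVP1 and 23 for the BRI1 line, the listed genes called were 6 and 0, and it changed no call of the 8 loci in the BRI1 line, of the named list genes or of AT1G54050 and MVP1 in the arrays labelled 35S::AVP1. The cause of these shifts was not tested. Without detection calls, signals as low as those of AOP2 and AT2G25450 in the arrays labelled 35S::AVP1, or of AOP3 in the others, cannot be told from background.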
